A study of Mus musculus with 25 samples.

Results

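The comparison set 5 mammary organoid libraries from untreated multiparous mice, taken 60 days after weaning, against 5 libraries from nulliparous mice that the labels call age-matched. The libraries were chosen by their labels and make up 10 of the 25 libraries of the series. All 34866 genes of the deposited expression table were considered, and the main results are given with all 5 multiparous libraries and again without multiparous replicate 2, a library rich in milk transcripts. The study asked how a full reproductive cycle, and the prolactin-suppressing dopamine agonist cabergoline, shape the later state of a tumour-prone mammary gland. Mice of both groups were Brca1/P53-deficient. In this model Cre recombinase acts in cells positive for cytokeratin 14, so only part of the cells of the gland lose both tumour suppressor genes, and the nulliparous mice carry the same alleles as the multiparous ones. Multiparous mice had gone through 2 pregnancies with lactation and received no cabergoline, and nulliparous mice were untreated and had never been pregnant. Mating began in young adult females, and ages at collection are not stated in the sources used here. A legend of the study counts fewer multiparous mice for this comparison than there are deposited multiparous libraries, without naming one that was left out. A further 5 libraries came from multiparous mice given cabergoline, at 0.2 mg per kg by the labels, and taken 60 days after weaning. The study's methods give another dose. Their values are printed for Areg, Snorc, Entpd8, Zfp987 and the epithelial markers, and they entered 1 alternative fit over all 15 libraries, in which 0 of 17960 genes passed the threshold between multiparous and nulliparous mice (smallest adjusted p = 0.272 from limma). Organoids are the epithelium-enriched pellet left after minced gland has been digested with collagenase and trypsin. Total RNA was depleted of ribosomal RNA and sequenced, and values are TPM, the transcripts of each gene scaled so that each library sums to 1000000.

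The mammary epithelium consists of an outer basal, contractile layer and an inner luminal layer. Some luminal cells carry receptors for estrogen and progesterone and pass these signals on through secreted factors such as amphiregulin, while luminal progenitors expand in pregnancy and give rise to milk-secreting cells under prolactin and its transcription factor STAT5. After weaning most secretory cells die and the gland returns to a state rich in fat, which is called involution. A gland that has been through this cycle is known to differ from one that has not in growth factor and hormone-response genes.

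The deleted genes were measured in every library. Brca1, a DNA repair gene, was at 5.7, 15.9, 0.64, 3.21 and 9.79 TPM in multiparous libraries 1 to 5, against 6.41, 9.58, 13, 4.62 and 7.18 TPM in nulliparous libraries 1 to 5. Trp53, which encodes P53, was at 95.9, 22.9, 27.6, 50.1 and 92.3 TPM in multiparous libraries, against 20.2, 75.3, 72.5, 32.8 and 42.4 TPM in nulliparous libraries. The groups overlapped for both genes, and a value per gene does not separate the deleted exons from the rest of the transcript. Replicates are listed in the same order throughout, and replicate numbers name libraries. The labels do not state that they pair them.

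Multiparous libraries had 15639 to 17668 genes at 1 TPM or more (median 17417), against 17317 to 18678 (median 18318) in nulliparous libraries. Mitochondrial transcripts took 1.52% to 23.8% of all TPM in multiparous libraries and 2.14% to 39.8% in nulliparous libraries. Pearson correlations between libraries, on log2 values, ran from 0.638 to 0.967. Depth is unknown, because TPM keeps no read counts.

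The organoid label was checked against 20 markers of epithelium. Their summed level was 249, 5670.3, 103, 127 and 144 TPM in multiparous libraries, against 569, 358, 869, 4241 and 2839 TPM in nulliparous libraries. Multiparous replicate 2 had the highest epithelial level of the 10 libraries, and the other 4 multiparous libraries lay below all 5 nulliparous ones. Summed T cell markers (16 genes) were at 3515, 67.3, 183, 1598 and 4235 TPM in multiparous libraries, against 375, 4075, 2219, 61.5 and 569.9 TPM in nulliparous libraries. Summed skeletal muscle markers (22 genes) were at 475, 388, 13781, 49859 and 454 TPM in multiparous libraries, against 2475, 1350.1, 4824, 1459 and 702 TPM in nulliparous libraries. T cell levels were highest in multiparous replicate 5 and nulliparous replicate 2, while muscle levels were highest in multiparous replicates 4 and 3. The summed T cell or muscle level was above the summed epithelial level in 4 of 5 multiparous and 3 of 5 nulliparous libraries. In such bulk libraries fewer cells of a type and less RNA per cell cannot be told apart.

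**Figure D1:**
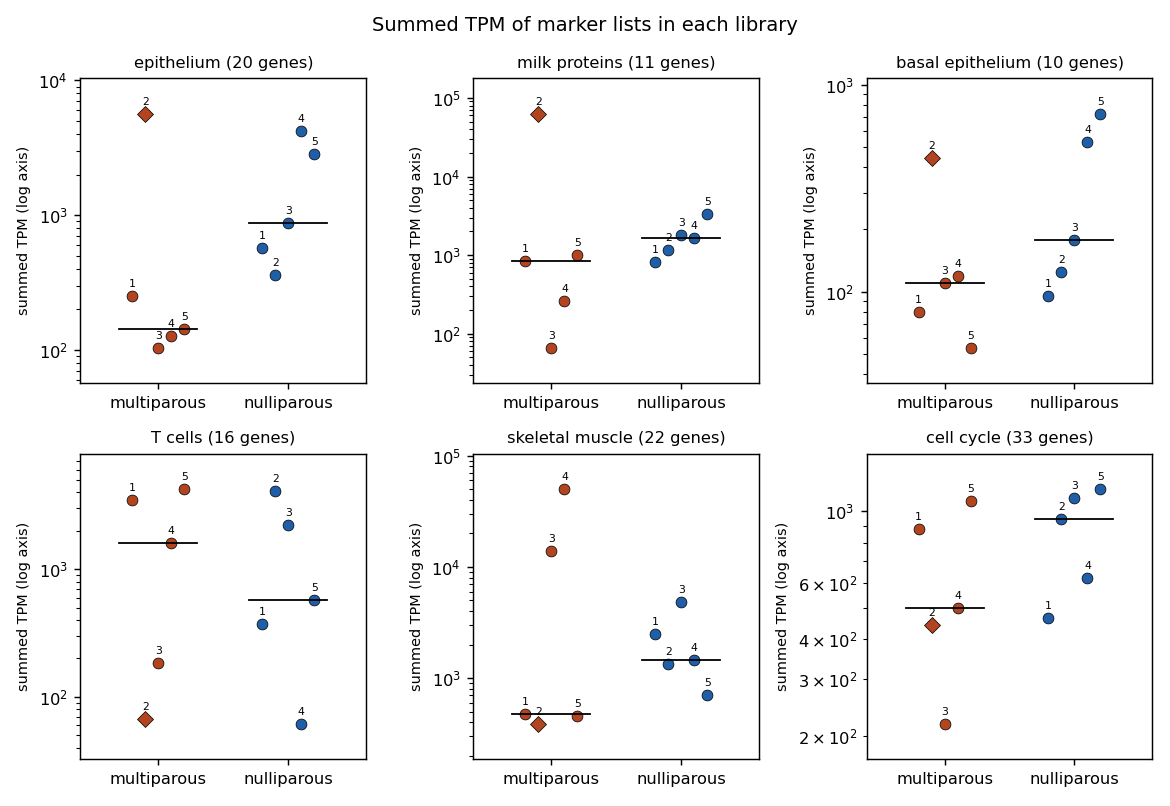
Summed TPM (log axes) of 6 marker lists in each of the 5 multiparous (left, red; replicate 2 as a diamond) and 5 nulliparous (right, blue) libraries, with the replicate number above each point and the group median as a line. Multiparous replicate 2 tops the epithelium and milk protein panels, and T cell and muscle levels overlap between the groups.

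With all 10 libraries, no gene passed the threshold between multiparous and nulliparous mice after adjustment. limma called 0 of 17960 genes in either direction with adjusted p-values up to 0.05 (0%), and with unadjusted p-values up to 0.05, 166 genes had higher values in multiparous libraries (0.924%) and 275 lower values (1.53%). The 2 groups did not overlap for 38 genes with higher values in multiparous libraries (0.212% of those tested) and 36 with lower values (0.2%). Of the 36, 6 were below 1 TPM in all 5 multiparous libraries and so passed the filter on low values through the nulliparous libraries alone, which by itself sets their direction. Without multiparous replicate 2, limma called 0 of 17790 genes in either direction (0%), with a smallest adjusted p of 0.344. With unadjusted p-values up to 0.05, 239 genes then had higher values in multiparous libraries (1.34%) and 575 lower values (3.23%). The groups did not overlap for 106 genes with higher values (0.596%) and 285 with lower values (1.6%), of which 51 passed the filter through the nulliparous libraries alone. The filter still asked for 1 TPM in 5 libraries, so genes present only in the 4 multiparous libraries could not be tested. This sets the larger number on the lower side in part, and the 2 sides are not compared. Over all genes the log2 fold change, multiparous over nulliparous, had a median of -0.03 with all libraries and 0.02 without replicate 2. Fold changes are on the scale of log2(scaled TPM + 1), which understates the change of genes at low level, and each is followed by its standard error (SE) where one is given. Whether groups overlap was judged on scaled TPM, while the printed TPM are as deposited. No gene difference below passed the threshold in these 2 fits, and the values are given as measurements. A further fit used library quality weights, which reflect how closely each library followed its group and do not measure RNA quality. This fit, chosen after the data had been seen, called 12 genes higher (0.0675%) and 46 lower (0.259%) in multiparous mice without replicate 2. Of these 46, 7 were below 1 TPM in all 4 multiparous libraries, Krt5 and Krt14 among them, and so were tested only because all nulliparous libraries passed the filter. The other lower ones included Krt8, Epcam, Areg and Fgfr2, and the higher ones Klf2 (log2 fold change 1.50) and Cdkn1a. The weights rested on few libraries, being 4.28 for multiparous replicate 4 and 7.90 for nulliparous replicate 3.

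Epithelial genes had lower values in multiparous libraries other than replicate 2. All 20 markers had a negative log2 fold change with all libraries, with a median of -1.90, and again without replicate 2, with a median of -2.87. Without replicate 2, the 4 multiparous values of 18 of the 20 markers lay below every nulliparous value, beside 1.6% of all genes tested, whereas with replicate 2 this held for 0 of 20. For 1 of the 18, Elf3, the filter alone set this order. Leaving out the library with the highest summed epithelial level by itself moves the multiparous values down. Krt18, a keratin of luminal cells, was at 7.37, 957, 8.03, 7.04 and 1.58 TPM in multiparous libraries, against 86.3, 33.5, 137, 793 and 387 TPM in nulliparous libraries. The lowest nulliparous level exceeded those of multiparous replicates 1, 3, 4 and 5, and replicate 2 exceeded all nulliparous libraries. Its log2 fold change was -3.16 (SE 1.46) with all libraries and -4.60 (SE 0.86) without replicate 2. Krt19, another luminal keratin, was at 6.73, 1056, 22.5, 17.5 and 2.01 TPM in multiparous libraries, against 152, 40.6, 178, 1257 and 396 TPM in nulliparous libraries. Its highest value was in nulliparous replicate 4, with multiparous replicate 2 next. Epcam, a cell adhesion gene used to sort epithelial cells, was at 2.6, 112, 1.72, 2.71 and 1.85 TPM in multiparous libraries, against 28.9, 11.3, 27.6, 109.8 and 107 TPM in nulliparous libraries (log2 fold change -2.58, and -3.60 without replicate 2). Esrp1, a splicing regulator of epithelia, had log2 fold changes of -2.82 with all libraries and -4.19 without replicate 2.

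Basal cell genes were spread in both groups. Their summed level over 10 markers was 79.7, 440.5, 110.2, 119 and 53.5 TPM in multiparous libraries, against 95.5, 125, 178, 527 and 725 TPM in nulliparous libraries, so multiparous replicates 3 and 4 lay above nulliparous replicate 1. Krt5, a defining keratin of basal cells, was at 0.637, 49.2, 0.23, 0.0395 and 0.138 TPM in multiparous libraries, against 10.7, 9.84, 19.9, 79.5 and 87.3 TPM in nulliparous libraries. Multiparous replicate 2 lay among the nulliparous libraries and the other multiparous libraries lay below 1 TPM. The log2 fold change was -3.38 (SE 1.09) with all libraries and -4.45 (SE 0.65, adjusted p = 0.344 from limma) without replicate 2. Krt14, whose promoter activity defines the cells that delete Brca1 and P53 in this model, was at 0.352, 97.4, 0.806, 0.636 and 0.433 TPM in multiparous libraries, against 8.68, 15.1, 19.5, 65.2 and 155 TPM in nulliparous libraries. It was below 1 TPM in the 4 multiparous libraries other than replicate 2, and its log2 fold change was -3.07, or -4.26 without replicate 2. All 10 basal markers had negative log2 fold changes in both fits, with medians of -1.91 and -2.65, and 7 of them did not overlap once replicate 2 was left out, beside 1.6% of all genes tested. Of these 7, 3 (Krt5, Krt14 and Krt17) were below 1 TPM in the 4 multiparous libraries, so that the filter alone set their order and nothing is read from it. The same 3 genes count among the 10 negative values and in the median of -2.65, which the filter therefore sets in part. Contractile genes, which basal cells share with vascular smooth muscle, lay closer to 0, with a median of -0.22 over 8 genes, and -0.42 without replicate 2. In neither fit were there members that did not overlap (beside 0.2% and 1.6% of all genes tested on the lower side). Acta2, smooth muscle actin, was at 85.4, 359.6, 394, 224 and 34.6 TPM in multiparous libraries, against 256, 105, 133, 518 and 241 TPM in nulliparous libraries, with overlapping groups.

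The 5 luminal progenitor markers had a median log2 fold change of -1.51 with all libraries and -2.28 without replicate 2. Kit, a receptor tyrosine kinase of luminal progenitors, was at 28.5, 400.4, 33.6, 19.8 and 21.9 TPM in multiparous libraries, against 141, 51.2, 135, 182 and 294 TPM in nulliparous libraries. Elf5, a transcription factor of progenitors and alveolar cells, was at 7.41, 555, 7.66, 8.1 and 5.23 TPM in multiparous libraries, against 33, 26.4, 32.8, 152 and 153 TPM in nulliparous libraries. For both genes the 4 other multiparous libraries lay below all nulliparous ones, and replicate 2 lay above them. Ehf, an epithelial transcription factor, had log2 fold changes of -2.23 with all libraries and -3.33 (SE 0.55) without replicate 2. The aldehyde dehydrogenase gene Aldh1a3 overlapped between the groups in both fits, with log2 fold changes of -0.21 and -0.52.

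Multiparous replicate 2 was singled out for its milk transcripts, so its milk gene levels, and in part the low levels of the 4 libraries left without it, are a description and no finding. The promoters of 2 casein genes are shown because caseins are targets of STAT5 and because their levels in the other 4 multiparous libraries lay below those of nulliparous mice. Each run holds the 150 bases before the annotated start of the gene, 5′ to 3′ on the strand of the gene, from RefSeq (GRCm38.p6), with the match to the STAT5 motif TTCNNNGAA in capitals. The motif reads the same on both strands. Csn2 lies on the minus strand and its run covers chr5:87699426-87699575, and Csn1s1 lies on the plus strand and its run covers chr5:87666058-87666207.
Csn2: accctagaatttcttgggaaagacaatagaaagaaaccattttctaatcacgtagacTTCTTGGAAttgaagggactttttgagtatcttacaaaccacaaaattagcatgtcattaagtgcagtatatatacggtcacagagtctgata
Csn1s1: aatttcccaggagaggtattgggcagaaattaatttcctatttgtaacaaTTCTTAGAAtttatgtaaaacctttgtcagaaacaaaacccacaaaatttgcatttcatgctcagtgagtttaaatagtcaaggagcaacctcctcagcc
The match starts 93 bases before the start of Csn2 and 100 bases before that of Csn1s1. Of the 11 milk protein genes listed, 9 had a promoter of 300 bases in the RefSeq table, and 4 of these held the motif (Csn1s1, Csn2, Csn1s2a and Glycam1), as did 8.3% of the 32851 promoters of that length. A match is a description of the letters and was not tested for binding.

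Csn2, beta-casein, was at 10.4, 22202, 1.22, 6.55 and 1.44 TPM in multiparous libraries, against 78.4, 75.1, 57.4, 341 and 639.8 TPM in nulliparous libraries. Replicate 2 was above every nulliparous library and the other 4 multiparous libraries were below every one. The log2 fold change was -2.47 (SE 2.22) with all libraries and -4.91 (SE 0.79, adjusted p = 0.344 from limma) without replicate 2. Csn1s1, alpha-S1-casein, was at 22.9, 9791, 27.1, 23.3 and 4.72 TPM in multiparous libraries, against 484, 169, 72.4, 482 and 1462 TPM in nulliparous libraries. Csn1s2a, another alpha-casein, was at 7.45, 13057, 1.17, 4.76 and 0.663 TPM in multiparous libraries, against 13.9, 81.7, 33.6, 141 and 393 TPM in nulliparous libraries. Csn3, kappa-casein, was at 4.05, 483, 6.18, 8.15 and 5.82 TPM in multiparous libraries, against 58.3, 14.6, 25.2, 107 and 83.2 TPM in nulliparous libraries. These 4 caseins shared the pattern of Csn2, with replicate 2 on top and the other 4 multiparous libraries lowest. Csn1s2b did not, at 3.59, 89, 0.798, 0.868 and 1.69 TPM in multiparous libraries, against 1.66, 3.8, 1.5, 1.92 and 1.74 TPM in nulliparous libraries, and its 4 lower multiparous values overlapped those of nulliparous mice.

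Wap, whey acidic protein, was listed at 0, 6719, 0.195, 0 and 0 TPM in multiparous libraries, against 1.54, 0.65, 1.56, 7.36 and 24.9 TPM in nulliparous libraries. It was listed at 0 in 3 of the 5 multiparous libraries. Lalba, the alpha-lactalbumin of lactose synthesis, was at 4.47, 2060, 1.95, 7.56 and 0.679 TPM in multiparous libraries, against 43.2, 10.1, 7.64, 124 and 148 TPM in nulliparous libraries, with overlap even without replicate 2. Ltf, the iron-binding lactoferrin, was at 40.0, 6784, 26.4, 78.7 and 1.34 TPM in multiparous libraries, against 142, 17.1, 220.1, 379 and 373 TPM in nulliparous libraries. Cel, the bile-salt-stimulated lipase of milk, was at 1.42, 236, 0.441, 2.08 and 2.43 TPM in multiparous libraries, against 0.489, 6.29, 3.11, 37.8 and 26.9 TPM in nulliparous libraries. Wap, Lalba, Ltf and Cel were all highest in multiparous replicate 2. So was Lao1, an L-amino acid oxidase found in milk, at 1.67, 603, 0.0305, 0.367 and 0.161 TPM in multiparous libraries, against 0, 1.46, 0.519, 9.37 and 7.36 TPM in nulliparous libraries. Glycam1 departed from this order, at 749.6, 1090.4, 0.272, 128 and 971 TPM in multiparous libraries, against 0.736, 768, 1368, 0.591 and 216 TPM in nulliparous libraries. It encodes a mucin of milk that is also made by lymph node vessels, and its level was under 1 TPM in multiparous replicate 3 and nulliparous replicates 1 and 4. The lymph node markers summed to 1378, 35.3, 74.5, 311 and 1320.1 TPM in multiparous libraries, against 163, 1249.9, 1145, 17.2 and 258 TPM in nulliparous libraries, and their part in the Glycam1 levels was not tested.

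Of the 11 milk protein genes, 4 had log2 fold changes above 0 and 7 below 0 with all libraries (median -1.05), and of the 9 that were tested without replicate 2, 1 was above 0 (median -2.70). Wfdc18, a small secreted protein related to Wap, was at 0, 1424, 0.985, 1.1 and 0.64 TPM in multiparous libraries, against 104, 10.2, 46.2, 153 and 197 TPM in nulliparous libraries. It had log2 fold changes of -3.38 (SE 1.83) with all libraries and -5.33 (SE 0.82) without replicate 2. Milk fat genes split between the fits, with a median of 0.11 over 11 genes with all libraries and -0.44 without replicate 2. Mfge8, the lactadherin of milk fat globules, was at 783, 4499, 152, 199.7 and 358 TPM in multiparous libraries, against 123, 446, 589, 1104 and 1273 TPM in nulliparous libraries, and overlapped even without replicate 2. Plin2, which coats lipid droplets, was at 51.4, 1401, 242, 72.9 and 34 TPM in multiparous libraries, against 82.1, 90.0, 142, 246 and 314 TPM in nulliparous libraries. Btn1a1, the butyrophilin of the milk fat globule, was at 5.82, 1391, 4.18, 8.39 and 1.71 TPM in multiparous libraries, against 26.1, 18.4, 37.8, 199.9 and 116 TPM in nulliparous libraries. Plin2 overlapped between the groups without replicate 2, whereas Btn1a1 did not.

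**Figure D2:**
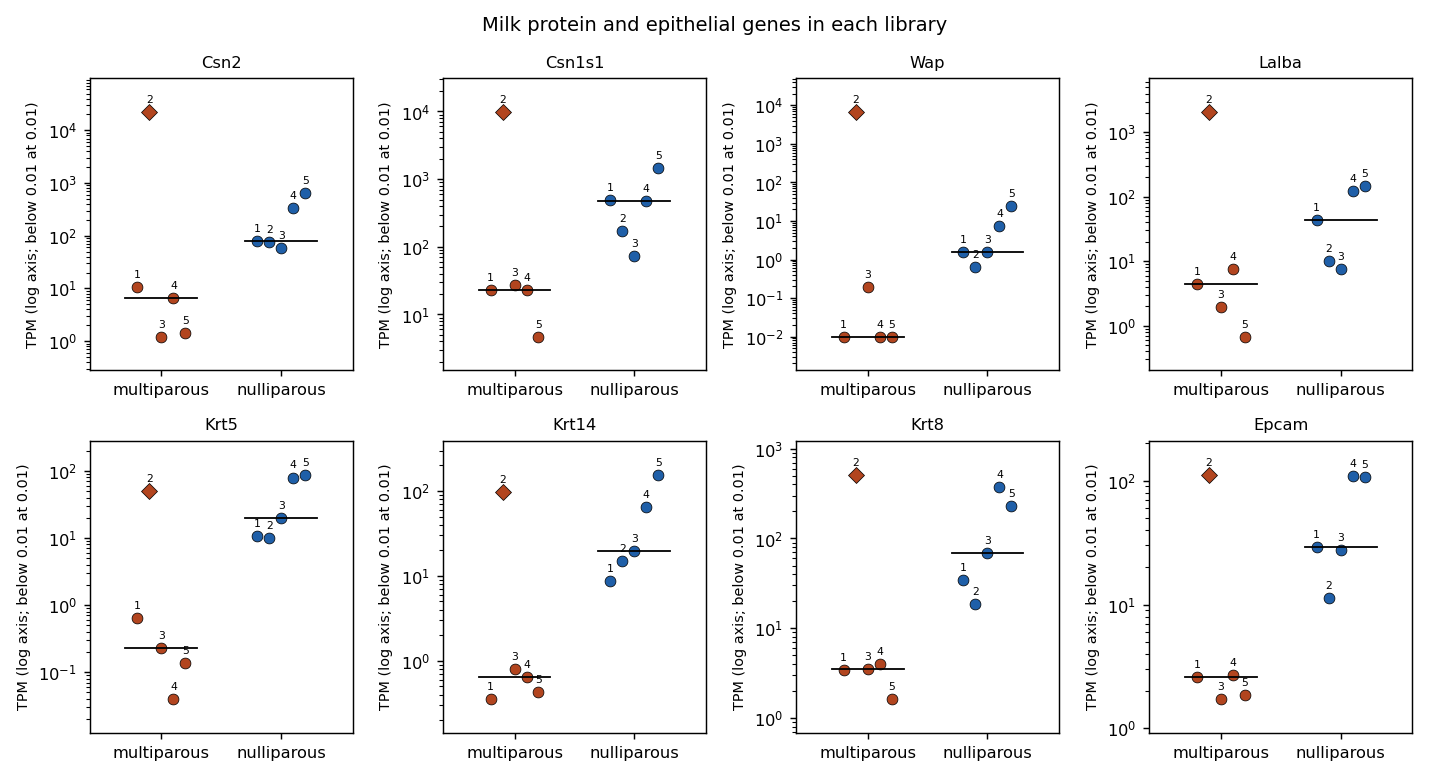
TPM (log axes, values below 0.01 drawn at 0.01) of 4 milk protein genes and 4 epithelial genes in the 5 multiparous (left; replicate 2 as a diamond) and 5 nulliparous (right) libraries, with group medians as lines. Replicate 2, which was singled out for its milk transcripts, stands above the nulliparous libraries for the milk genes. The other multiparous libraries lie at the bottom of each panel. For Krt5 and Krt14 the filter alone set this order, and nothing is read from it.

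Prolactin and STAT5 signalling genes varied in both directions, with a median of 0.11 over 8 genes and -0.08 without replicate 2. Prlr, the prolactin receptor, was at 7.85, 321, 11.7, 8.87 and 5.87 TPM in multiparous libraries, against 51.8, 21.9, 68.3, 418 and 128 TPM in nulliparous libraries. Its 4 low multiparous values lay below all nulliparous ones. Stat5a was at 75.7, 271, 32.6, 39.7 and 65.8 TPM in multiparous libraries, against 15.2, 73.2, 62, 125 and 108 TPM in nulliparous libraries, and Stat5b had a log2 fold change of 0.70 (SE 0.35). Both STAT5 genes overlapped between the groups. Among genes of STAT3 signalling and early involution, the median was 0.10 over 15 genes, and -0.22 without replicate 2. Stat3 was at 467, 1186, 278, 316 and 410.4 TPM in multiparous libraries, against 256, 365, 439, 722 and 718 TPM in nulliparous libraries. Lcn2, a siderophore-binding acute phase protein, was at 14.4, 4098, 11.6, 12.4 and 3.27 TPM in multiparous libraries, against 78.4, 58.7, 136, 822 and 816 TPM in nulliparous libraries. Both were highest in multiparous replicate 2, and Lcn2 in the other 4 multiparous libraries lay below all nulliparous libraries.

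Areg had lower values in all 5 multiparous libraries, replicate 2 included. It encodes amphiregulin, a ligand of the EGF receptor that relays estrogen signals during duct growth, and its gene lies at chr5:91139599-91148432 on the plus strand of GRCm38. Its promoter is shown because the level of its transcript separated the groups. The run covers chr5:91139449-91139598 (RefSeq, GRCm38.p6, plus strand), 5′ to 3′, with the match to TGACGTCA, the cyclic AMP response element, in capitals.
Areg: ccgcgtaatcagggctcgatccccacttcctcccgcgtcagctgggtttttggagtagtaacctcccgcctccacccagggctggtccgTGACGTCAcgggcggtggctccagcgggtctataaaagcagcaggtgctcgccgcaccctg
This element reads the same on both strands, starts 61 bases before the gene and occurs in 1.79% of the 32851 promoters of 300 bases. Areg was at 2.76, 5.59, 0.265, 1.35 and 3.33 TPM in multiparous libraries, against 18, 13.8, 57.6, 362 and 51.1 TPM in nulliparous libraries. The highest multiparous level was below the lowest nulliparous one. Means were 2.66 ± 2.03 TPM in multiparous mice and 101 ± 148 TPM in nulliparous mice (SD, n = 5 each), and the nulliparous mean was raised by replicate 4. The log2 fold change was -3.91 (SE 0.80, adjusted p = 0.99993 from limma) with all libraries and -4.17 (SE 0.85, adjusted p = 0.375 from limma) without replicate 2. With the mean level of the epithelial markers as a covariate it was -3.02 (SE 0.76). In the 5 cabergoline-treated multiparous libraries at the same time after weaning, Areg was at 2.86, 3.19, 38.4, 0 and 6.46 TPM, and replicate 3 of these lay among the nulliparous levels. Summed epithelial markers in those libraries were 144, 175, 495, 315 and 294 TPM, with replicate 3 highest.

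**Figure D3:**
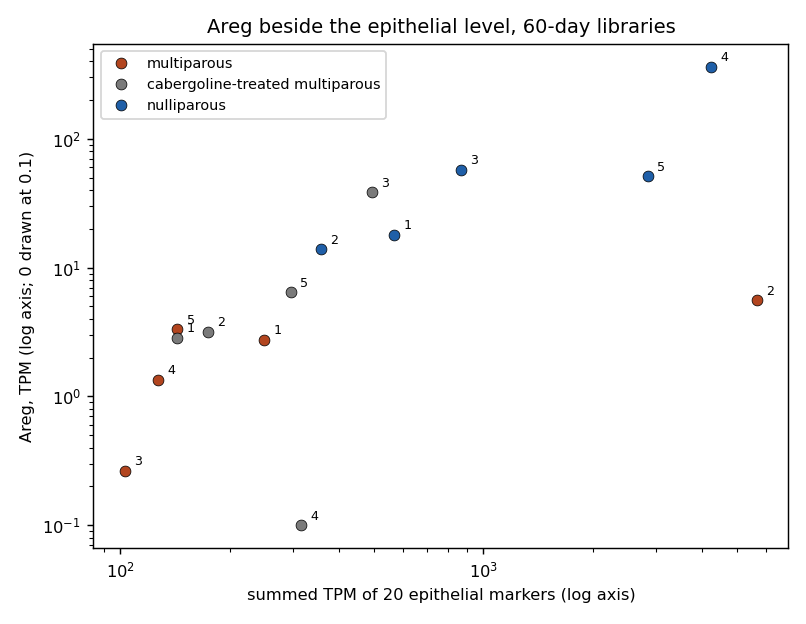
Areg (TPM, log axis, 0 drawn at 0.1) against the summed TPM of 20 epithelial markers (log axis) in 5 untreated multiparous, 5 cabergoline-treated multiparous and 5 nulliparous libraries, with replicate numbers. Untreated multiparous replicate 2 combines the highest epithelial level with 5.59 TPM of Areg, below the 13.8 TPM of nulliparous replicate 2.

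Hormone receptor genes were spread over a wide range. Pgr, the progesterone receptor and a target of estrogen, was at 1.58, 9.67, 2.58, 1.44 and 0.413 TPM in multiparous libraries, against 10.5, 4.95, 20.2, 72.4 and 22.4 TPM in nulliparous libraries. Multiparous replicate 2 reached the nulliparous range and the other 4 did not. The log2 fold change was -2.47 (SE 0.70) with all libraries, -2.89 (SE 0.66) without replicate 2 and -1.42 (SE 0.49) with the epithelial level as a covariate. Esr1, estrogen receptor alpha, was at 12.2, 36.7, 21.9, 33.2 and 11.3 TPM in multiparous libraries, against 24.1, 18.9, 20.1, 49.8 and 29.4 TPM in nulliparous libraries, with overlapping groups (log2 fold change -0.24, SE 0.44). Foxa1, a partner of estrogen receptor alpha, was at 0.0352, 12.6, 0.598, 0.367 and 0.214 TPM in multiparous libraries, against 3.42, 2.21, 9.09, 72.4 and 18.8 TPM in nulliparous libraries. Without replicate 2 it passed the filter through the nulliparous libraries alone. All 9 markers of hormone-sensing luminal cells had negative log2 fold changes in both fits, with medians of -0.68 and -0.96. Ly6a, which encodes the surface marker Sca-1 and is also made by endothelium, was the most abundant of them, at 133, 470.2, 438, 321 and 122 TPM in multiparous libraries, against 546, 187, 239, 384 and 255 TPM in nulliparous libraries. Of the other relays of estrogen and progesterone, Tnfsf11 (RANKL) was at 8.17, 1.67, 0.226, 1.74 and 7.18 TPM in multiparous libraries, against 0.656, 9.02, 6.18, 2.63 and 6.21 TPM in nulliparous libraries. Wnt4, a progesterone target, was at 5.78, 14.4, 3.85, 8.76 and 3.22 TPM in multiparous libraries, against 3.01, 6.89, 7.71, 27.8 and 12.8 TPM in nulliparous libraries. Cxcl12, a chemokine that fibroblasts also make, was at 98.8, 35.6, 246, 180.4 and 104 TPM in multiparous libraries, against 127, 132, 172, 135 and 102 TPM in nulliparous libraries. These 3 genes overlapped between the groups, and Areg was the only one of the 7 tested relays whose groups did not, beside 0.2% of all genes.

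The 32 genes of mammary development and branching had 6 positive and 26 negative log2 fold changes with all libraries. Their median was -0.63 with all libraries, beside -0.03 for all genes, and -0.90 over 31 genes without replicate 2, beside 0.02. With the epithelial level as a covariate it was 0.0555. Only replicate 2 of the multiparous libraries was not below all nulliparous ones in summed epithelial level. The covariate fit therefore rests largely on replicate 2, and nothing is concluded from the change. Areg alone did not overlap with all libraries (0.2% of all genes), and 5 genes did not overlap without replicate 2 (1.6% of all genes). Fgfr2, a receptor for fibroblast growth factors in duct branching, was at 7.71, 321, 7.41, 6.81 and 6.84 TPM in multiparous libraries, against 45.8, 29.1, 64.1, 350.4 and 158 TPM in nulliparous libraries. The 4 low multiparous values lay between 6.81 and 7.71 TPM, below all nulliparous libraries (log2 fold change -2.25, or -3.29 with a SE of 0.64 without replicate 2). Sox9, a transcription factor of mammary stem and progenitor cells, was at 2.14, 78.4, 3.27, 1.59 and 1.11 TPM in multiparous libraries, against 18.7, 2.87, 8.84, 53.3 and 48.6 TPM in nulliparous libraries. It overlapped in both fits, and its log2 fold change of -1.60 turned to 0.29 with the epithelial level as a covariate.

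Hgf, the stromal hepatocyte growth factor, was at 0.507, 4.85, 2.42, 0.921 and 1.64 TPM in multiparous libraries, against 5.77, 3.94, 4.74, 8.24 and 15.2 TPM in nulliparous libraries. Without replicate 2 the groups did not overlap, with log2 fold changes of -1.42 (SE 0.45) with all libraries and -1.68 (SE 0.42) without it. Its receptor Met was at 3.2, 44.9, 11.3, 9.9 and 3.84 TPM in multiparous libraries, against 16.9, 9.15, 15.1, 48.7 and 54.6 TPM in nulliparous libraries, and overlapped in both fits (log2 fold change -1.09, and 0.04 with the covariate). Erbb4, a receptor of the EGF receptor family needed for alveolar differentiation, was at 0.0176, 2.57, 2.35, 0.633 and 0.0461 TPM in multiparous libraries, against 0.841, 0.275, 1.67, 7.72 and 10.3 TPM in nulliparous libraries. It was under 1 TPM in 3 multiparous and 2 nulliparous libraries. Of its relatives, Egfr had a log2 fold change of 0.12, Erbb2 one of -0.45 and Erbb3 one of -1.03, all with overlapping groups. Gata3, a luminal transcription factor that T cells also express, was at 57.2, 263, 10.9, 36.1 and 89.6 TPM in multiparous libraries, against 68.1, 83.8, 161, 647 and 249 TPM in nulliparous libraries. Fgfr1 had a log2 fold change of -0.42 (SE 0.60).

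**Figure D4:**
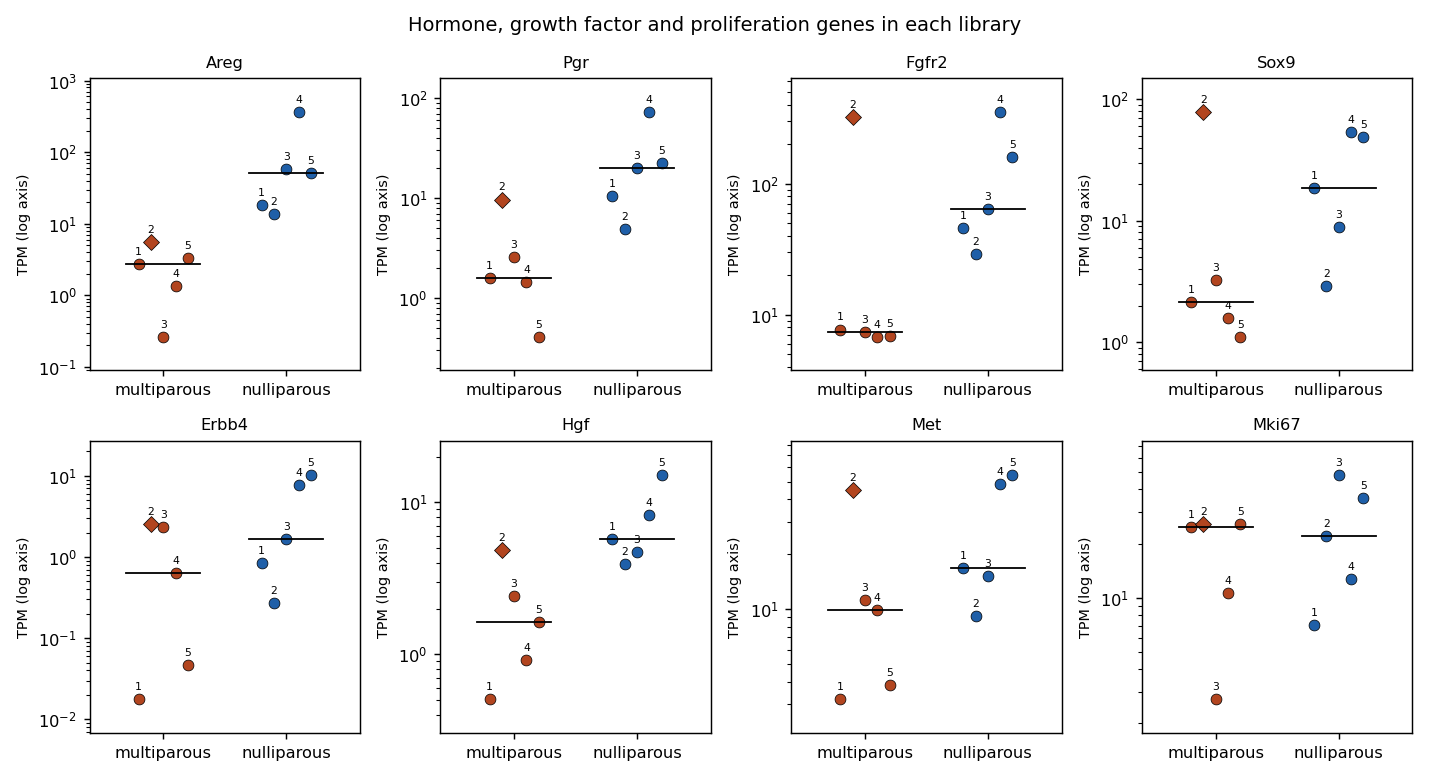
TPM (log axes) of 7 hormone and growth factor genes and of the proliferation gene Mki67 in the 5 multiparous (left; replicate 2 as a diamond) and 5 nulliparous (right) libraries, with group medians as lines. The groups are apart for Areg, whereas for Fgfr2, Pgr and Hgf multiparous replicate 2 reaches the nulliparous range.

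Among Wnt genes, 7 of 27 had a positive log2 fold change with all libraries (median -0.29) and 11 of 26 without replicate 2 (median -0.27). The most abundant were Tcf7 and Lef1, transcription factors that T cells also express, with log2 fold changes of -0.24 and 0.27 and overlapping groups. Wif1, a secreted Wnt inhibitor outside that list, was at 1.16, 8.4, 0.265, 0.555 and 0.648 TPM in multiparous libraries, against 4.55, 4.98, 6.25, 13.3 and 12.3 TPM in nulliparous libraries. Without replicate 2 the groups did not overlap (log2 fold change -2.32, SE 0.34, adjusted p = 0.344 from limma). Lgr5, a receptor for R-spondins, was at 5.11, 3.04, 2.73, 2.58 and 2.15 TPM in multiparous libraries, against 13.6, 4.84, 4.46, 6.26 and 28.5 TPM in nulliparous libraries. Notch1 was at 262, 346, 300.1, 320.2 and 333 TPM in multiparous libraries, against 332, 364, 303, 429 and 394 TPM in nulliparous libraries, with overlapping groups. Igfbp5, an IGF-binding protein that increases in involution, was at 54, 712, 226, 163 and 27.7 TPM in multiparous libraries, against 318, 72.7, 135, 598 and 797 TPM in nulliparous libraries. Notch genes had a median of 0.11 over 14 genes (0.07 without replicate 2), TGF-beta genes one of -0.18 over 18 (-0.20) and the IGF axis one of -0.35 over 13 (-0.44). With all libraries 0 genes of these 3 lists did not overlap, beside 0.212% of all genes on the higher side and 0.2% on the lower.

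A pair of lists held genes that earlier rodent studies place lower or higher after parity. Of 6 genes listed as lower, 4 were tested, and all 4 had negative log2 fold changes (median -1.60, and -1.74 without replicate 2). Besides Areg these were Ptn, Igf1 and Ghr. Ptn, the growth factor pleiotrophin, was at 3.12, 41.9, 9.52, 4.92 and 1.39 TPM in multiparous libraries, against 21.2, 9.5, 44, 208 and 60.3 TPM in nulliparous libraries (log2 fold change -2.35, and -0.93 with the epithelial level as a covariate). Igf1, insulin-like growth factor 1, was at 18.6, 3.9, 13.2, 14.1 and 10.7 TPM in multiparous libraries, against 29.7, 12.2, 20.9, 24.1 and 29.5 TPM in nulliparous libraries, and overlapped (log2 fold change -0.86, SE 0.45). Ghr, the growth hormone receptor, had a log2 fold change of -0.23 (SE 0.76). Of the 7 genes of the other list, 1 had a value above 0 and 6 had values below 0 (median -0.64, and -0.89 over 6 genes without replicate 2). This list holds Csn2, Lalba and Wap, milk transcripts of the kind for which replicate 2 was singled out. That choice sets these values in part. The value above 0 was that of Wap (0.42), which was not tested without replicate 2. Tgfb3, of the same list, was at 13, 93.5, 42.8, 27.8 and 5.28 TPM in multiparous libraries, against 32.4, 12.8, 20.7, 90.1 and 84 TPM in nulliparous libraries. Lbp, which binds bacterial lipopolysaccharide, was at 28.9, 509, 53.7, 41.4 and 16.7 TPM in multiparous libraries, against 69.2, 21.8, 44.3, 128 and 131 TPM in nulliparous libraries. Igkc, the immunoglobulin kappa chain, was at 921, 199, 140.2, 81.4 and 754 TPM in multiparous libraries, against 151, 579, 6966, 113 and 324 TPM in nulliparous libraries. All 3 genes overlapped between the groups.

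The genes with the smallest p among those with lower values in multiparous mice include several that were near 0 in all multiparous libraries. Snorc, Cyp3a57, Entpd8 and Smpdl3b were below 1 TPM in all 5, so they were tested only because all 5 nulliparous libraries passed 1 TPM, and nothing is read from the lack of overlap. Snorc, a proteoglycan gene known from cartilage, was at 0, 0, 0, 0 and 0.378 TPM in multiparous libraries, against 17.3, 2.03, 15, 21.8 and 115 TPM in nulliparous libraries. It was listed at 0 in 4 multiparous libraries and had a log2 fold change that is no bound (-4.09, SE 0.75, with a value that depends on the pseudocount). Cyp3a57, a cytochrome P450 gene of a family of close copies among which reads can be split, was at 0, 0, 0.369, 0.371 and 0.31 TPM in multiparous libraries, against 8.07, 2.94, 11, 68.8 and 9.36 TPM in nulliparous libraries. Entpd8, an enzyme that hydrolyses extracellular nucleotides, was at 0.37, 0.585, 0, 0 and 0.357 TPM in multiparous libraries, against 1.35, 1.8, 2.05, 2.55 and 1.46 TPM in nulliparous libraries (log2 fold change -1.14, SE 0.23). Cabergoline-treated multiparous libraries listed Snorc at 0, 0.27, 1.14, 0 and 0.419 TPM and Entpd8 at 0.147, 0.152, 0.143, 0 and 0.0637 TPM.

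Gpr141, an orphan receptor, was at 0.645, 1.19, 0.322, 0.157 and 1.32 TPM in multiparous libraries, against 1.88, 3.15, 3.25, 2.73 and 2.73 TPM in nulliparous libraries. Smpdl3b, a lipid-modifying phosphodiesterase, was at 0.294, 0, 0.802, 0.482 and 0.664 TPM in multiparous libraries, against 2.27, 1.52, 1.86, 5.98 and 11.8 TPM in nulliparous libraries. S100a8, a calcium-binding protein abundant in neutrophils, was at 2.38, 0, 2.07, 0 and 5.48 TPM in multiparous libraries, against 5.95, 7.78, 15.7, 5.5 and 13.9 TPM in nulliparous libraries. The groups did not overlap for Gpr141 and S100a8, for S100a8 by a narrow margin (5.48 against 5.5 TPM as deposited). Ptpn5, a tyrosine phosphatase, was at 5.48, 0, 0.317, 0.237 and 0.87 TPM in multiparous libraries, against 7.21, 4.79, 12.3, 14.3 and 4.56 TPM in nulliparous libraries, and replicate 1 of the multiparous mice overlapped. Epn3, an epsin of endocytosis, was at 0.228, 6.86, 0.664, 0.584 and 0.0497 TPM in multiparous libraries, against 4.05, 5.5, 5.82, 29.3 and 33.5 TPM in nulliparous libraries, with only replicate 2 of the multiparous mice in the nulliparous range and the other 4 below the filter of 1 TPM.

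Zfp987 was nearly absent from 1 nulliparous library and all multiparous ones. This zinc finger gene of a family of near-identical copies, for which the assignment of reads is uncertain, was at 0, 0, 0.0504, 0.151 and 1.08 TPM in multiparous libraries, against 91.9, 47.6, 134, 0.187 and 69 TPM in nulliparous libraries. Without nulliparous replicate 4 it was the only gene that limma called (1 of 17685 genes, log2 fold change -5.99, SE 0.42, adjusted p = 0.00145, 0.00565% of those tested). That replicate is the nulliparous library in which Zfp987 was nearly absent, so leaving it out by itself set the groups apart. The cabergoline-treated multiparous libraries listed Zfp987 at 62.7, 134, 36.9, 0 and 162 TPM, and 4 of these 5 were at 36.9 TPM or more. Acot1, an acyl-CoA thioesterase, was at 5.48, 431, 4.79, 2.46 and 1.95 TPM in multiparous libraries, against 25.5, 19.2, 43.2, 103 and 85.9 TPM in nulliparous libraries (log2 fold change -1.96, and -3.27 with a SE of 0.52 without replicate 2).

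Genes with higher values in multiparous mice showed smaller differences. Cdkn1a, the P53 target that encodes the cell cycle inhibitor p21, was at 121, 52, 71.8, 78.4 and 62.7 TPM in multiparous libraries, against 36, 56.1, 50.3, 43.2 and 47.6 TPM in nulliparous libraries. The groups did not overlap after scaling, although the deposited value of multiparous replicate 2 lies below that of nulliparous replicate 2 (log2 fold change 0.79, SE 0.23, and 0.93 without replicate 2). Over all 18 P53 targets 11 log2 fold changes were positive and 7 negative, with a median of 0.09, and 0.14 without replicate 2. Mdm2, which encodes the ubiquitin ligase of P53, had a log2 fold change of 0.46 (SE 0.22), and Bax, a pro-apoptotic target, one of 0.28 (SE 0.29). Perp, a P53 target and component of epithelial junctions, was at the other end with -2.21 (SE 0.79). The groups overlapped for these 3 genes.

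Nme6, a nucleoside diphosphate kinase family gene, was at 15.2, 14.2, 10.3, 12.4 and 8.92 TPM in multiparous libraries, against 1.52, 5, 7.18, 2.35 and 7.81 TPM in nulliparous libraries. Each multiparous value was above every nulliparous one (log2 fold change 1.46, SE 0.33, and 1.41 without replicate 2). Drap1, a transcriptional corepressor, was at 155, 162, 96.2, 128 and 102 TPM in multiparous libraries, against 30.5, 81.9, 115, 78.4 and 105 TPM in nulliparous libraries. Iscu, a scaffold for iron-sulfur cluster assembly, was at 215, 119, 88.1, 121 and 119 TPM in multiparous libraries, against 40.9, 113, 103, 58.4 and 101 TPM in nulliparous libraries. Aldh4a1, a mitochondrial enzyme of proline breakdown, was at 15.9, 16.6, 22.9, 29.2 and 20.6 TPM in multiparous libraries, against 3.32, 16.2, 16.4, 11.1 and 12 TPM in nulliparous libraries. The lowest of these nulliparous values were in replicate 1, the library with the highest mitochondrial share (39.8%). For Drap1, Iscu and Aldh4a1 the groups did not overlap on scaled TPM, whereas deposited values of Drap1, Iscu and Aldh4a1 did. Cdc34, a ubiquitin-conjugating enzyme, was at 59.3, 37.7, 54.2, 99.2 and 45.3 TPM in multiparous libraries, against 15.3, 44.6, 41.1, 28.8 and 42 TPM in nulliparous libraries, and its groups were apart on scaled TPM by a narrow margin. Bloc1s1, D10Jhu81e and Mettl22 also did not overlap on scaled TPM (0.212% of all genes on the higher side), with log2 fold changes of 0.57, 1.02 and 0.65. Morn3 overlapped, with a log2 fold change of 1.35 (SE 0.41).

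Further genes with higher values came up once multiparous replicate 2 was left out. Klf2, a transcription factor of resting T cells and of endothelium, was at 159.9, 65.9, 165, 199.8 and 119 TPM in multiparous libraries, against 58.8, 95.9, 77.5, 101 and 87.6 TPM in nulliparous libraries. Its log2 fold change was 1.06 (SE 0.23, adjusted p = 0.396 from limma) without replicate 2. Ksr1, a scaffold of the MAP kinase pathway, was at 112, 11.5, 78.4, 123 and 84.9 TPM in multiparous libraries, against 22.8, 73.9, 66.6, 32.8 and 73.1 TPM in nulliparous libraries. Itpkb, an inositol phosphate kinase, was at 149.7, 39.6, 134, 136 and 129.6 TPM in multiparous libraries, against 61.5, 123, 101, 85.7 and 72.2 TPM in nulliparous libraries. Klf2, Ksr1 and Itpkb were low in multiparous replicate 2, and the groups did not overlap without it. Gem, Ip6k3, Ehbp1l1 and Hdac7 had log2 fold changes of 0.82, 1.54, 1.05 and 0.68 without replicate 2, and also did not overlap then (0.596% of all genes on the higher side). These genes were picked by their p in that fit, so their lack of overlap is a description.

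Of 33 cell cycle genes, 30 had a negative log2 fold change with all libraries and 29 without replicate 2. The medians were -0.55 and -0.42, beside 53.8% and 48.1% of all genes with a negative value, and 0 genes of the list did not overlap in either fit (0.2% and 1.6% of all genes on the lower side). Mki67, which encodes the proliferation antigen Ki-67, was at 24.8, 25.6, 2.72, 10.6 and 25.8 TPM in multiparous libraries, against 7.08, 21.9, 48.2, 12.7 and 35.7 TPM in nulliparous libraries. Its log2 fold change was -0.40 (SE 0.57), and 0.07 without multiparous replicate 3. Top2a, a DNA topoisomerase of dividing cells, was at 91.7, 54.4, 8.39, 42 and 112 TPM in multiparous libraries, against 32.5, 107, 136, 54.3 and 113 TPM in nulliparous libraries. Cdk1, the kinase that drives mitosis, was at 26.5, 6.94, 15.2, 23 and 66.4 TPM in multiparous libraries, against 58.2, 55.3, 71.2, 56 and 54.1 TPM in nulliparous libraries (log2 fold change -1.29, SE 0.47). Only multiparous replicate 5 reached the nulliparous range for Cdk1. Pcna, the sliding clamp of replication, had a log2 fold change of -0.49 (SE 0.33).

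Immune genes varied widely among the libraries of both groups. Of 16 T cell markers, 14 had positive log2 fold changes with all libraries (median 0.38) and 16 without replicate 2 (median 1.28), and the groups overlapped for all 16. With the epithelial level as a covariate the median was -1.47, the opposite direction, and leaving out 1 library at a time gave medians of -0.31 (without nulliparous replicate 4) to 1.28. Cd3e, a chain of the T cell receptor complex, was at 546, 1.05, 26.6, 269.8 and 591 TPM in multiparous libraries, against 56.2, 653, 388, 6.2 and 109 TPM in nulliparous libraries. Trbc2, a constant region of the T cell receptor, was at 677, 23.2, 35, 350.3 and 948 TPM in multiparous libraries, against 93.7, 949, 421, 13.8 and 116 TPM in nulliparous libraries. Cd3e and Trbc2 were lowest in multiparous replicate 2 and nulliparous replicate 4 within their groups, the libraries richest in epithelium in each group. Ccl5, a chemokine of cytotoxic cells, was at 514, 11.3, 21.3, 160 and 445 TPM in multiparous libraries, against 17.6, 316, 235, 9.24 and 53.3 TPM in nulliparous libraries. B and plasma cell markers had a median of -0.24 over 12 genes, which became 0.65 without replicate 2. Ighm, the heavy chain of IgM, was at 609.7, 5.4, 49, 116 and 466 TPM in multiparous libraries, against 36, 389, 609, 12.5 and 156 TPM in nulliparous libraries. Macrophage markers had negative log2 fold changes for 13 of 14 genes with all libraries (median -0.54, and -0.46 without replicate 2), among them the lysozyme gene Lyz2 at -0.14 (SE 0.60) and the complement gene C1qb at -0.51 (SE 0.46). MHC class II genes had negative values for 9 of 9 (median -0.23, and 0.05 without replicate 2), with H2-Aa at -0.33 (SE 0.79). Pigr, which carries IgA across epithelia, was at 0.527, 205, 0.26, 0.154 and 0.901 TPM in multiparous libraries, against 9.19, 1.06, 2.9, 23.4 and 20.9 TPM in nulliparous libraries. Genes of TNF and NF-kB signalling had 13 of 17 positive log2 fold changes (median 0.30, and 0.37 without replicate 2). Nfkbia, the inhibitor that NF-kB induces, was at 466, 353, 190, 292 and 362 TPM in multiparous libraries, against 129, 332, 273, 272 and 308 TPM in nulliparous libraries, with overlap. Interferon-response genes had 8 of 18 positive values with all libraries (median -0.04) and 7 of 18 without replicate 2 (median -0.27). The 5 neutrophil genes that were tested, of 10 listed, had negative values (median -0.68, and -0.69 without replicate 2). S100a8 was the only one whose groups did not overlap, by a narrow margin (0.2% of all genes).

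Stromal and metabolic lists lay close to 0 or followed single libraries. Endothelial markers had a median of 0.07 over 16 genes with all libraries and 0.17 without replicate 2. Fibroblast markers had 1 of 14 positive values with all libraries (median -0.39) and 5 of 14 without replicate 2 (median -0.20). Collagens had 3 of 16 positive values with all libraries (median -0.17) and 7 of 16 without replicate 2 (median -0.04). Dcn, the fibroblast proteoglycan decorin, was at 85.7, 124, 939.6, 343 and 91.9 TPM in multiparous libraries, against 867, 134, 268, 357 and 351 TPM in nulliparous libraries. Col3a1, a fibrillar collagen, was at 167, 103, 516, 310.3 and 93.6 TPM in multiparous libraries, against 798, 112, 203, 340.4 and 1036 TPM in nulliparous libraries. Pecam1, an endothelial adhesion gene, was at 239, 236, 304, 263 and 164 TPM in multiparous libraries, against 357, 210.2, 234, 419 and 194 TPM in nulliparous libraries. The groups overlapped for these 3 genes, and the ranges within a group were wider for Dcn and Col3a1 than for Pecam1. Adipocyte markers had a median of 0.08 over 16 genes, and 0.01 over 15 without replicate 2. Fatty acid synthesis genes had 13 of 16 positive log2 fold changes, with a median of 0.73, and 0.46 without replicate 2. Fasn, fatty acid synthase, was at 76.7, 1794, 1308, 232 and 76.7 TPM in multiparous libraries, against 68.5, 72.7, 288, 149 and 268 TPM in nulliparous libraries. Scd1, a fatty acid desaturase, was at 88.3, 1038, 2190.3, 339 and 82.8 TPM in multiparous libraries, against 368, 57.8, 435, 63.2 and 151 TPM in nulliparous libraries. Both were highest in multiparous replicates 2 and 3 and overlapped between the groups. Skeletal muscle markers had 19 of 22 positive values (median 0.49), and 22 of 22 without replicate 2 (median 1.14). Ckm, the muscle creatine kinase, was at 62.1, 54.6, 2235, 9517 and 41.6 TPM in multiparous libraries, against 295, 166, 821, 191 and 95.5 TPM in nulliparous libraries. Multiparous replicates 3 and 4 held the highest Ckm levels, and the lowest were also in multiparous libraries. The endoplasmic reticulum chaperone Hspa5, of a secretory pathway list with 10 of 13 negative values (median -0.30, and -0.58 without replicate 2), was at 278, 565, 122, 159 and 229 TPM in multiparous libraries, against 306, 172, 302, 371 and 583 TPM in nulliparous libraries. Genes of the immediate early and dissociation response had 23 of 24 positive values with all libraries (median 0.31) and 13 of 24 without replicate 2 (median 0.11). Fos, an early-response transcription factor, was at 322, 1615, 578, 323 and 232 TPM in multiparous libraries, against 559, 229, 190.1, 1109.7 and 694 TPM in nulliparous libraries, with the highest level of each group in multiparous replicate 2 and nulliparous replicate 4.

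**Figure D5:**
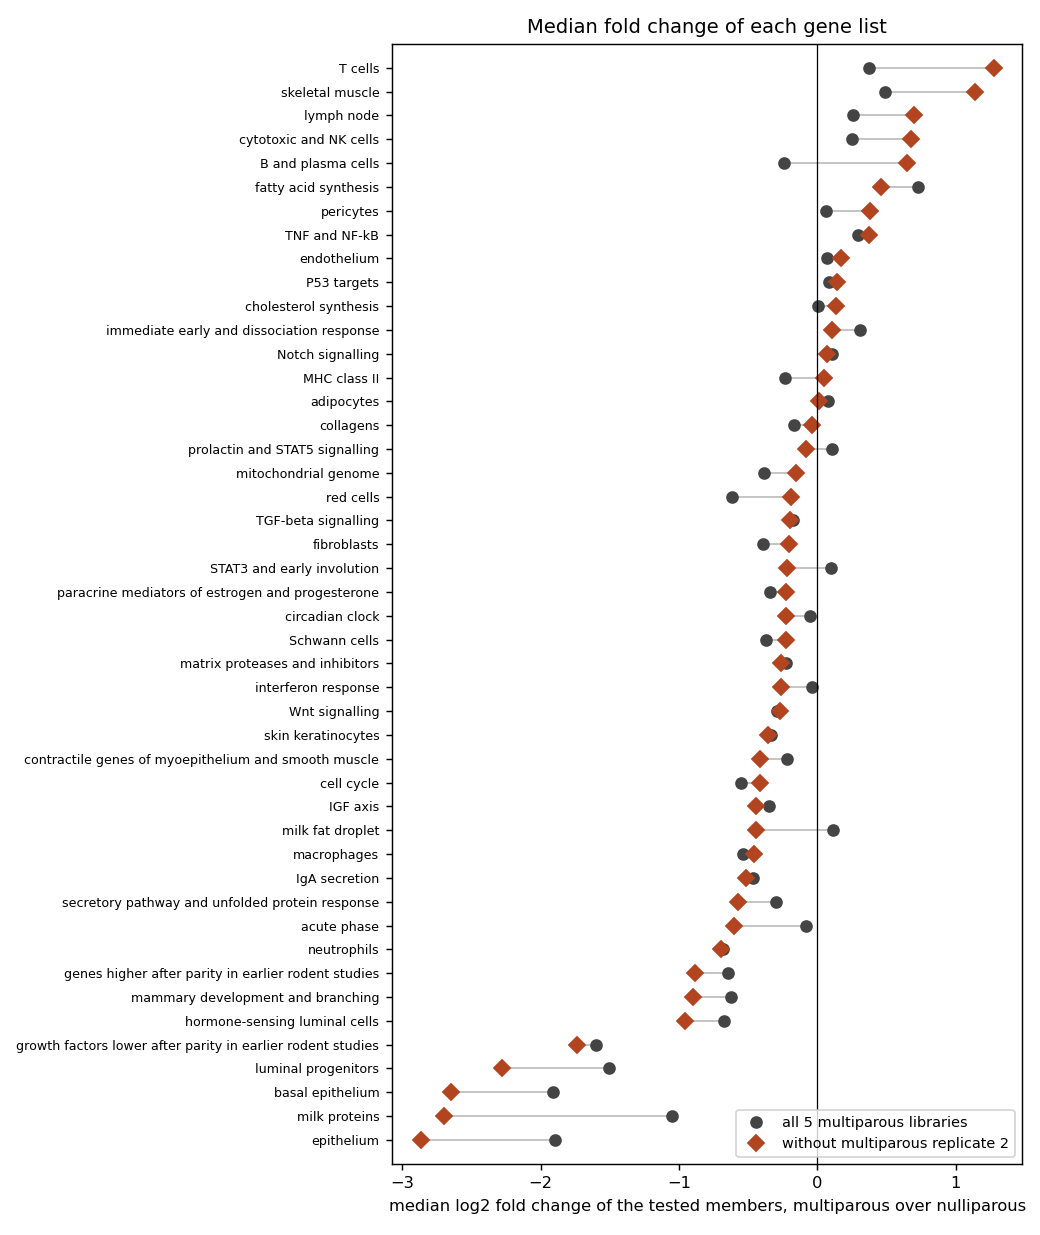
Median log2 fold change, multiparous over nulliparous, of the tested members of 46 gene lists, with all 5 multiparous libraries (circles) and without replicate 2 (diamonds), ordered by the diamonds. Milk protein, epithelial and basal lists reach medians of -2.70, -2.87 and -2.65 without replicate 2, and the T cell list is at 1.28. Without replicate 2 the filter alone set the direction of 3 of the 10 basal markers.

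Once replicate 2 was left out, the epithelial, basal and progenitor lists had medians far below that of all genes, at -2.87, -2.65 and -2.28. The milk protein list was at -2.70. The choice of the library left out sets these values in part, because replicate 2 had the highest multiparous sum of each of these lists. The filter alone also set the direction of 3 of the 10 basal markers and 1 of the 20 epithelial markers in that fit. With all libraries the medians were -1.90 for epithelium, -1.91 for basal cells, -1.51 for luminal progenitors and -1.05 for milk proteins. With the mean epithelial level as a covariate and all libraries, the medians were 0.08 for epithelium (whose markers make the covariate), -0.33 for basal cells, 0.46 for luminal progenitors, 1.77 for milk proteins, -0.65 for cell cycle genes, -1.49 for B and plasma cells and 1.39 for fatty acid synthesis. In that fit 0 of 17960 genes passed limma's threshold (smallest adjusted p = 0.0864). Replicate 2 was the only multiparous library not below all nulliparous ones in summed epithelial level, so these adjusted values rest largely on it. It was singled out for its milk transcripts, and nothing is read from the milk protein value. Areg, Pgr and Fgfr2 were also fitted without the 3 libraries richest in epithelium, and without replicate 2 with the covariate. Areg had log2 fold changes of -3.23 (SE 0.58) without these 3 libraries and -1.18 (SE 1.15) without replicate 2 with the covariate. Pgr had values of -2.17 (SE 0.54) and -0.25 (SE 0.75) in these fits. Fgfr2 was at -0.29 (SE 0.24) with the covariate and all libraries, -2.38 (SE 0.36) without the 3 libraries and -0.38 (SE 0.43) without replicate 2 with the covariate. The log2 fold changes of all 3 genes lay closer to 0 with the covariate than without it, both with and without replicate 2. Without replicate 2, every multiparous library lay below every nulliparous one in summed epithelial level. Parity and epithelial level therefore cannot be told apart in that fit, and nothing is concluded from the smaller values.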

How the data were processed

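RNA-seq was measured in 25 organoid libraries, of which the 5 untreated multiparous ones at 60 days and the 5 nulliparous ones were analysed here. Per the study's methods, expression was quantified with Salmon and tested by the authors with edgeR. The submitters' processing notes name the mouse genome build GRCm38. The annotation release is not given in the sources used here. The deposited values are TPM per gene, which the authors made from these estimates, and no read counts were used here, so depth, counting error and the precision it gives are unknown. Of the 34866 genes, 34652 matched GENCODE vM21 by gene ID. Each library was scaled by its median ratio to the geometric mean of the genes (median of ratios) and transformed as log2(TPM + 1). Genes at 1 TPM or more in at least 5 of 10 libraries were tested with limma 3.58.1 (R 4.3.3, moderated with a mean trend, Benjamini-Hochberg adjustment, threshold 0.05). Fits that left out libraries kept the same minimum of 5 libraries. Because the values are not counts, no count model was fitted. The fit was tested on simulated data.

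The labels number the mice but do not state separate litters or extractions, so p-values measure the spread between these libraries. Replicate numbers were checked for pairing, and same-numbered libraries did not deviate together. The genes named are the 10 with the smallest p in each direction with all libraries and without multiparous replicate 2, some of the 2 most abundant genes of each list, the milk proteins, the deleted genes and genes the study names, leaving out predicted genes. For genes picked by p, the lack of overlap follows in part from that choice and is a description. Other genes were named after their values were seen. The members and the 46 gene lists were chosen with earlier results of these data known. The 2 lists on parity were put together from textbook knowledge of rodent glands. Promoters are from RefSeq (GRCm38.p6), 250 bases before to 50 after the start. Alternatives covered scaling, pseudocount, filter, weights, a replicate block, an epithelial covariate, leaving out each library and a fit that also held the 5 cabergoline-treated libraries of 60 days. A further 4 were added after the data were seen. Columns of the remaining libraries entered no test.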

Additional observations from a re-analysis of the deposited data

Results flagged for a closer look

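Single libraries stood far from the other 4 of their group in 15 of 150 groups of values examined (single genes and summed lists, on log2(scaled TPM + 1), with TPM as deposited given here). For independent groups of values chance gives about 5%. These groups share libraries, and some lists share genes, so the count was not tested against that rate. Multiparous replicate 2 was the one standing apart in 8 of the 15. It was high in Sox9 (78.4 TPM), Fgfr2 (321 TPM) and Epn3 (6.86 TPM), and in the summed levels of epithelium (5670 TPM), luminal progenitors (1792 TPM), STAT3 and early involution genes (8131 TPM), acute phase genes (5951 TPM) and secretory pathway genes (3210.3 TPM). Multiparous replicate 5 was high in Snorc (0.378 TPM, the other 4 at 0) and Zfp987 (1.08 TPM). Multiparous replicate 4 was low in summed neutrophil markers (10.7 TPM). Nulliparous replicate 1 was low in Bloc1s1 (30.0 TPM), nulliparous replicate 5 low in Gpr141 after scaling (2.73 TPM as deposited), nulliparous replicate 4 low in Zfp987 (0.187 TPM), and nulliparous replicate 2 low in summed skin keratinocyte markers (9.73 TPM).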

How the results depend on the processing

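The counts of called genes stayed at 0 in both directions under all alternatives but 2. Leaving out each library in turn gave 0 to 1 called genes lower in multiparous mice, the 1 being Zfp987 without nulliparous replicate 4, and 0 higher. Without multiparous replicate 2 and with quality weights, 12 genes were called higher and 46 lower. The replicate block gave 0 called genes in either direction, and the deviations of same-numbered libraries correlated at -0.521 to -0.0763 in the 5 pairs. No pairing by number was seen. The check used all genes tested, which also carry the differences in cell content, so it cannot exclude a shared litter or batch. With unadjusted p-values up to 0.05 the balance moved with scaling, with 166 higher and 275 lower genes in the main setting, 24 and 520 on TPM as deposited and 40 and 599 without mitochondrial genes and Gm12895. The medians of all genes were then -0.14 and -0.18. Quality weights gave 1908 and 1896 (smallest adjusted p = 0.051 from limma), and the epithelial covariate 1069 and 2054.

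Of 55 genes compared, 20 turned in direction under at least 1 alternative, and the causes were not tested. With the epithelial covariate and all libraries, the milk gene values rest largely on multiparous replicate 2, which was singled out for its milk transcripts. With pseudocount 0.1, Wap was at -1.42 (log2 fold change). With quality weights the values were -0.0806 for Trp53, -0.0682 for Csn1s2b, -0.93 for Wap, -2.62 for Glycam1 and -0.12 for Lao1. With the epithelial covariate they were -0.38 for Ksr1, -0.14 for Itpkb, 0.23 for Acot1, 1.40 for Csn2, 0.29 for Sox9, 0.0376 for Met, -0.25 for Trp53, 0.64 for Csn1s1, 1.77 for Csn1s2a, 0.66 for Csn3, 1.76 for Lalba, 1.89 for Ltf and 1.96 for Cel. Leaving out 1 library gave -0.19 to 1.20 for Csn1s2b, -0.80 to 0.0177 for Brca1, -0.63 to 0.0721 for Mki67, -1.68 to 0.20 for Cel and -2.70 to 0.18 for Ltf. Added settings reversed further values. Without replicate 2 and with weights, Trp53 was at -0.0437, Csn1s2b at -0.27 and Glycam1 at -2.69. Without the 3 libraries richest in epithelium, Csn1s2b was at -0.28 and Glycam1 at -0.11. Without replicate 2 on TPM as deposited, Csn1s2b was at -0.26. Without replicate 2 and with the covariate, Smpdl3b was at 0.30, Sox9 at 0.76, Met at 0.72, Trp53 at -0.25, Csn1s2b at -0.63, Lalba at 0.55, Glycam1 at -4.33, Ltf at 1.11 and Cel at 1.26.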

Other observations

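Further lists showed no separation of the groups. Red cell genes had 6 of 6 negative log2 fold changes (median -0.62, and -0.19 without replicate 2), and 13 of 13 genes of the mitochondrial genome were negative too (median -0.39), whereas 4 of 13 were positive without replicate 2 (median -0.16). The mitochondrial share was highest in nulliparous replicate 1 (39.8%), and its part in these values was not tested. Cholesterol synthesis genes had a median of 0.01 over 19 genes (0.14 without replicate 2), clock genes one of -0.05 over 15 (-0.23) and Schwann cell genes one of -0.37 over 7 (-0.23). The groups overlapped for every gene of these 5 lists with all libraries.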
